A study of Mus musculus with 192 samples.

Results

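Described here are 9 genes that encode scaffold proteins of the excitatory postsynapse, Dlg4, Dlg2, Dlg3, Shank1, Shank2, Shank3, Homer1, Dlgap1 and Dlgap3, in mouse hippocampus. They were taken by their GENCODE vM21 symbols from the 41128 mouse genes of the deposited count table. The symbols alone define the members, but the set was chosen with earlier results of these data known. Polyadenylated RNA was sequenced from 192 mice, 1 library a mouse, in 24 groups of 8 mice with 4 of each sex. zQ175 mice carry a knock-in expansion of the CAG repeat in the mouse Htt gene and serve as a model of Huntington's disease, and wild-type (WT) mice are their comparison. Mice of both genotypes were given HTT-10150 siRNA, which the study directs against full-length HTT, or HTT-634 and HTT-486 siRNAs together, directed against the HTT1a transcript (labelled HTT-634.486), or a non-targeting siRNA (NTC), or were left untreated. Regimens are named by age in months: 2[4]6 stands for dosing at 2 and collection at 6, 6[4]10 for dosing at 6 and collection at 10, and 2.6[8]10 for dosing at both 2 and 6 and collection at 10. The labels give neither the zygosity of the zQ175 mice nor their repeat length, and whether littermates served as WT mice is not stated there either. The untreated mice of a regimen were collected at the same age as its treated mice.

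Excitatory synapses on dendritic spines carry a dense protein layer under the receptor membrane, the postsynaptic density. Dlg4 (PSD-95), Dlg2 (PSD-93) and Dlg3 (SAP102) are membrane-associated guanylate kinases whose PDZ domains hold NMDA receptors and, through auxiliary subunits, AMPA receptors. Their guanylate kinase domains bind the GKAP proteins, of which Dlgap1 and Dlgap3 are members. The GKAP proteins bind Shank1, Shank2 and Shank3, large scaffolds that lie deeper in the density, and the Shank proteins bind Homer1, which links them to group I metabotropic glutamate receptors. Homer1 also gives rise to a short activity-induced form, Homer1a, which lacks the part that joins Homer molecules. Counts per gene do not separate the short form from the long ones.

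The promoters of Homer1 and Shank3 are shown because Homer1, an activity-induced gene, set 6 libraries of 6[4]10 apart, and Shank3 was called lower in untreated zQ175 mice of both regimens collected at 10 months. Both are the 250 bases before a RefSeq start on the plus strand of GRCm38.p6, in lower case. Capitals mark TGACG, the half-site of the cAMP response element, in Homer1. In Shank3 they mark the reverse complement of GCGTGGGCG, the motif of the immediate early factor EGR1.
Homer1 promoter, chr13:93303507-93303756: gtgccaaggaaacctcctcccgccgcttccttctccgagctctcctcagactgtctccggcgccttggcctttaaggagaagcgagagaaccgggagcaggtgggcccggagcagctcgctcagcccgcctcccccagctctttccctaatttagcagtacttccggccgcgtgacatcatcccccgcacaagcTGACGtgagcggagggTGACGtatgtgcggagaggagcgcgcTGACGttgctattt
Shank3 promoter, chr15:89499358-89499607: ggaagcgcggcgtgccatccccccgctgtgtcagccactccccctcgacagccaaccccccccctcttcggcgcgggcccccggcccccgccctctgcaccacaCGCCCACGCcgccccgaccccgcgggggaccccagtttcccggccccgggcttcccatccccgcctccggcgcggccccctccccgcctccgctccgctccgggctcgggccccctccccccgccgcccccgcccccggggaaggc
Both strands were searched. The Homer1 window held TGACG at 3 places, and 0.688% of the 32851 promoters of the same length held it at 3 or more, against 17.8% that held it at least once. A second Homer1 start in the table, whose window is chr13:93307784-93308033, held none. The full site TGACGTCA was in neither Homer1 window, and 1.55% of promoters held it. TGACG also lay once in a Dlg3 window (chrX:100774245-100774494) and once in a Dlg4 window (chr11:70023732-70023981). The Shank3 window held GCGTGGGCG once, as did 0.536% of promoters. The Sp1 box GGGCGG, also searched, lay at 4 places in the Shank3 window. It was held at 3 or more places by 8.47% of promoters and at least once by 32.7%. The promoter table matched 7 of the 9 genes with 14 starts in all; Shank1 and Shank2 were not matched. These matches are letters in a window and were not tested for binding.

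Total counts per library ran over 8441632 to 55955529 in 2[4]6, 13376471 to 41269383 in 6[4]10 and 12999992 to 65748954 in 2.6[8]10. Htt, the targeted gene, was lower after HTT-10150 than after NTC in zQ175 mice of all 3 regimens (log2 changes of −0.44, −0.69 and −0.92, each called). Single mice varied, with 63.9 to 171.7 CPM of Htt in HTT-10150 mice and 121.8 to 174.9 CPM in NTC mice of 2[4]6, 54.1 to 158.04 and 122.2 to 164.5 CPM in 6[4]10, and 54.7 to 126.1 and 128.4 to 166.99 CPM in 2.6[8]10, so 5, 7 and 8 of 8 HTT-10150 mice lay below every NTC mouse. In WT mice Htt fell in 2[4]6 and 2.6[8]10 (−0.95 and −1.27), and in 6[4]10 its change was not called (−0.55, adjusted p = 0.16), with 66.8 to 176.6 CPM in HTT-10150 and 153.3 to 185.7 CPM in NTC mice. The HTT-10150 groups below hold every library so labelled, those with Htt in the range of NTC mice included. In zQ175 mice its changes after HTT-634.486 were −0.01, −0.07 and −0.02, none called. Transcripts of the sex chromosomes went against the sex label in 2 libraries of 6[4]10 and 1 of 2.6[8]10. The first female of the WT HTT-10150 group of 2.6[8]10 stood apart. Its 6 striatal markers summed to 6002 CPM (counts scaled for library size), against 59.8 to 272.9 CPM in the other 191 libraries, and its 9 markers of hippocampal fields to 322.6 CPM, against 361.8 to 978.2 CPM. It lay outside the range of the 191 others in 8 of the 9 scaffold genes, with 79.5 CPM of Shank1 and 730.4 CPM of Dlgap3 for example, and only its Dlg2 was within that range. Where leaving it out moved a result of 2.6[8]10, values are given with and without it. Another 6 libraries, all of 6[4]10, carry a K in their library name, a mark whose meaning the labels do not give, and all 6 are WT females. K names also occur in 2[4]6, in both genotypes. Calls among the 9 genes that moved in 6[4]10 without those 6 libraries are given with and without them, as are some other values.

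All 9 genes had reads in 192 of 192 libraries, the lowest count being 723 reads of Homer1, and all 9 passed the filter on low counts in every fit. Levels are CPM scaled by TMM factors over all libraries, as the mean ± SD of 192 libraries, and they compare samples, not genes. Dlg4 (ENSMUSG00000020886, GRCm38 chromosome 11, 70016942 to 70047522) stood at 664.5 ± 67.4 CPM. Per kilobase of annotated exon, with the exons of all isoforms joined, Dlgap3 (ENSMUSG00000042388, chromosome 4, 127169204 to 127237022) was highest with 71.1 CPM per kb. That length is not the length of the transcripts expressed here, so the order of the genes depends on the annotation too. Dlg4 followed with 50.1, Shank1 (ENSMUSG00000038738, chromosome 7, 44310253 to 44360572) with 44.7, Dlg3 (ENSMUSG00000000881, chromosome X, 100767722 to 100818410) with 38.7 and Dlgap1 (ENSMUSG00000003279, chromosome 17, 69969073 to 70821413) with 34.9 CPM per kb. Shank3 (ENSMUSG00000022623, chromosome 15, 89499623 to 89560261) had 31.1, Shank2 (ENSMUSG00000037541, chromosome 7, 144001928 to 144424494) 16.1, Dlg2 (ENSMUSG00000052572, chromosome 7, 90476672 to 92449247) 11.3 and Homer1 (ENSMUSG00000007617, chromosome 13, 93299635 to 93405129) 7.88 CPM per kb. All 9 genes lie on the plus strand. Among the genes tested, this length-scaled level put Dlgap3 at percentile 96.8 and Homer1 at percentile 66.5. The most even gene within group and sex was Dlg3, with an SD of 0.097 on the log2 scale, and the least even was Shank1 with 0.248. Leaving out the library high in striatal markers made the most even gene Dlgap1 (0.084, and 0.184 with it) and the least even Homer1 (0.215), with Shank1 at 0.157. Exons shared with another gene made up 3.22% of Shank1 (with 1700008O03Rik on the opposite strand), 2.95% of Shank3 (Gm15609, opposite strand), 0.514% of Dlgap1 (AC079441.1, opposite strand), and 0.921% and 0.461% of Dlg2 (Gm45131 and Gm45159, same strand). The sources used here do not give whether counting used the strand, so reads in those stretches cannot be assigned with certainty.

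**Figure D1:**
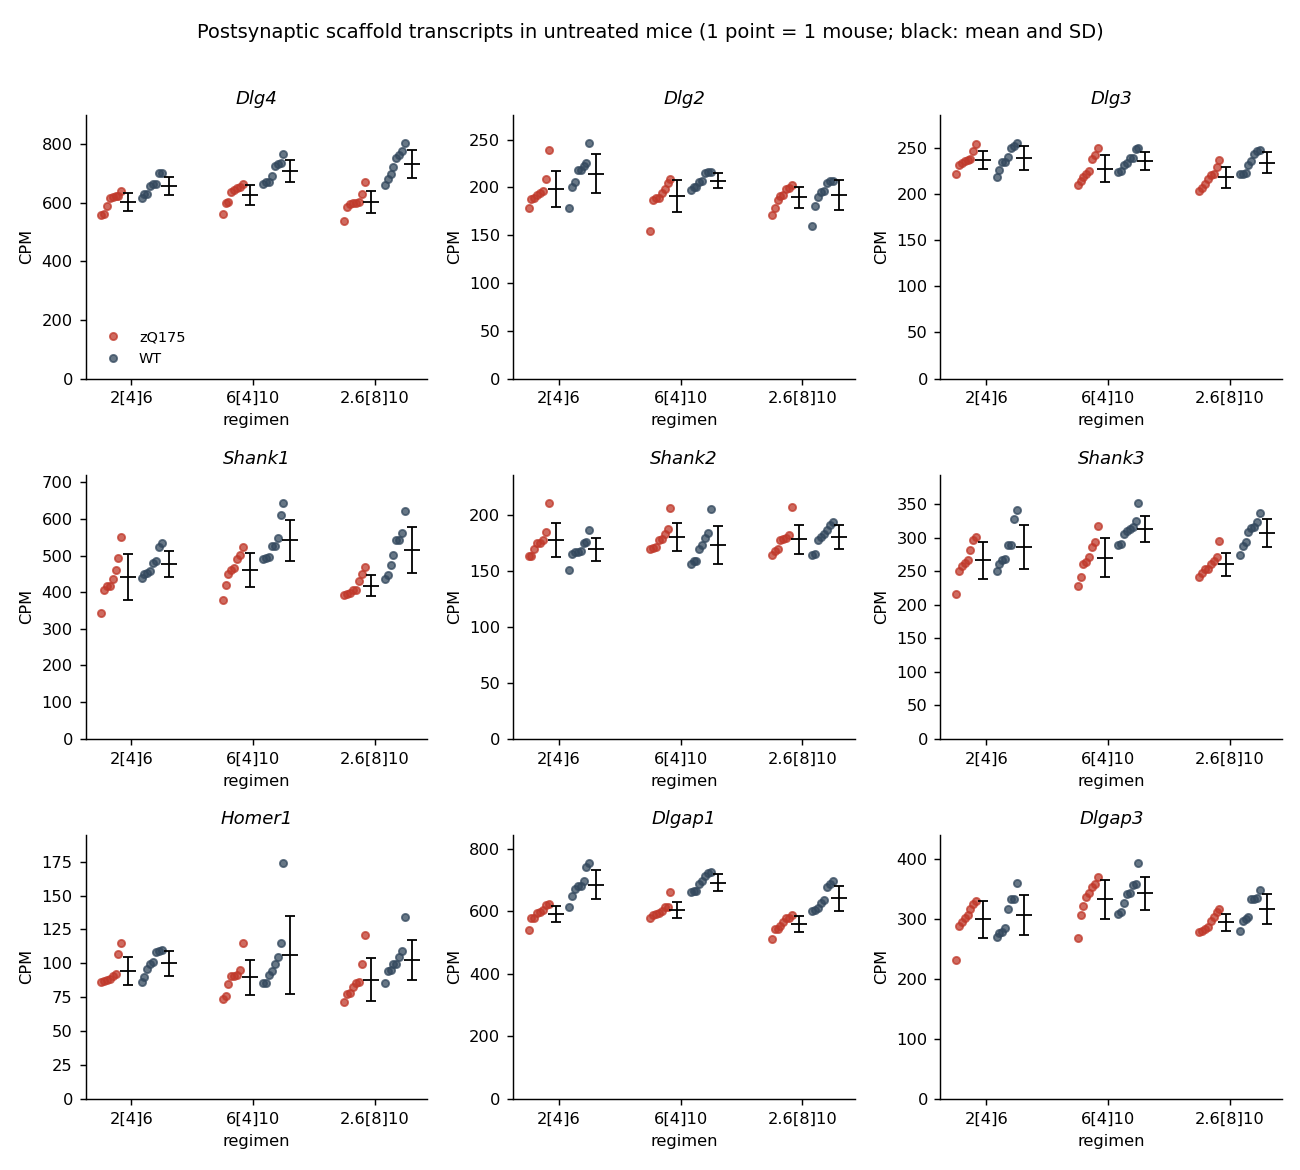
Level of each of the 9 genes in CPM (linear axis) in every untreated mouse of the 3 regimens, zQ175 left of WT, with the mean and SD of 8 mice. The 8 zQ175 mice of 6[4]10 lie at 562.3 to 662.7 CPM of Dlg4, below the 664.0 to 766.8 CPM of the 8 WT mice, and Shank2 overlaps in every regimen.

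Between untreated zQ175 and WT mice, Dlgap1, Dlg4 and Shank3 fell in 1 or more regimens in the fits of all libraries. Their changes were −17.7 to −11.4 percent where called, and none of the 9 genes rose. Shank1 was called lower as well in 2.6[8]10 without the library high in striatal markers. Calls are at a Benjamini-Hochberg adjusted p under 0.05 in edgeR's quasi-likelihood test over all genes of a regimen. Overlap of the groups was examined for the 9 genes and Htt only. Groups that do not overlap are therefore not shown to be particular to the scaffolds. Mice that share a library number, the number after zQ175 in the library name, are all of the same genotype. Genotype and library number therefore cannot be told apart, and the tests treat such mice as independent. In 2[4]6 the test called 1 of the 9 genes lower, in 6[4]10 3 and in 2.6[8]10 2, or 4 without the library high in striatal markers. Over all genes tested, 4.15% were called in 2[4]6 (2.29% lower), 11.5% in 6[4]10 (6.19% lower) and 11.1% in 2.6[8]10 (6.45% lower; without the library, 16.4% in all and 8.71% lower). The median log2 change of the 9 genes was −0.10, −0.17 and −0.20 in the 3 regimens, and that of all genes tested was 0.0023, 0.0096 and 0.0015. Without the K-named libraries, 1 of which is an untreated WT mouse, the median of the 9 genes in 6[4]10 was −0.11 and 2 of them were called lower. The median of all genes tested was then 0.0103. The share of all genes called in that fit is not given here, and the shares above are of other fits. In bulk tissue, fewer cells of a type and less RNA per cell cannot be told apart. The 5 neuron markers summed to a median of 4384 CPM in zQ175 and 4862 CPM in WT mice of 2[4]6, 4243 and 4734 CPM in 6[4]10, and 4178 and 4599 CPM in 2.6[8]10. The part of this in the scaffold results was not tested.

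Dlg4, the highest of the 3 guanylate kinase scaffolds in CPM per kb, ranged over 557.4 to 640.2 CPM (median 618.5) in untreated zQ175 mice of 2[4]6, against 616.6 to 701.1 CPM (median 660.1) in WT mice. Its range in 6[4]10 was 562.3 to 662.7 CPM (median 641.1) in zQ175 mice, against 664.0 to 766.8 CPM (median 709.8) in WT mice, and the groups did not overlap. Dlg4 in 2.6[8]10 ranged over 537.1 to 670.4 CPM (median 599.2) in zQ175 mice, against 662.5 to 804.1 CPM (median 738.2) in WT mice, and 7 of 8 zQ175 mice lay below every WT mouse. The change was −0.12 ± 0.051 (log2, SE; edgeR adjusted p = 0.216) in 2[4]6, where it was not called. Dlg4 fell by 11.4 percent in 6[4]10 (log2 change −0.17 ± 0.047, adjusted p = 0.00773) and fell by 17.7 percent in 2.6[8]10 (−0.28 ± 0.051, adjusted p = 6.63e-05).

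Dlg2, which holds NMDA receptors and also potassium channels, overlapped between genotypes in all 3 regimens. It ranged over 178.8 to 238.9 CPM in untreated zQ175 mice of 2[4]6, against 178.1 to 246.3 CPM in WT mice. Dlg2 in 6[4]10 ranged over 153.9 to 208.8 CPM in zQ175 mice, against 197.5 to 215.9 CPM in WT mice, with 5 of 8 zQ175 mice below every WT mouse. Its changes were −0.11, −0.12 and −0.02 on the log2 scale, with adjusted p of 0.582, 0.476 and 0.926, and none was called. Dlg3, a scaffold prominent in young synapses, was likewise not called in untreated mice. Its means ± SD were 237.5 ± 9.76 CPM in zQ175 and 239.1 ± 13.1 CPM in WT mice of 2[4]6, 227.6 ± 14.4 and 236.3 ± 9.76 CPM in 6[4]10, and 218.4 ± 11.3 and 234.2 ± 11.1 CPM in 2.6[8]10 (n = 8 each). Without the library high in striatal markers its change in 2.6[8]10 was −0.09 (adjusted p = 0.0975).

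Dlgap1, the GKAP protein that joins Dlg4 to the Shank layer, was the 1 gene called in untreated mice of 2[4]6. There it ranged over 540.0 to 622.3 CPM (median 595.9) in zQ175 mice, against 614.7 to 753.9 CPM (median 680.6) in WT mice, and 6 of 8 zQ175 mice lay below every WT mouse. Dlgap1 in 6[4]10 ranged over 578.8 to 661.2 CPM in zQ175 mice, against 662.4 to 726.4 CPM in WT mice, with no overlap. In 2.6[8]10 it ranged over 511.7 to 587.8 CPM in zQ175 mice, against 599.8 to 698.3 CPM in WT mice, again with no overlap. Dlgap1 fell by 13.4 percent in 2[4]6 (−0.21 ± 0.037, adjusted p = 0.000139) and by 12.4 percent in 6[4]10 (−0.19 ± 0.045, adjusted p = 0.00185). For 2.6[8]10 the fit of all 64 libraries gave −0.20 ± 0.120 (adjusted p = 0.315), and the fit without the library high in striatal markers gave −0.19 (adjusted p = 0.000643, called). That library had 133.6 CPM of Dlgap1, against 610.9 to 686.0 CPM in the other 7 mice of its group. Dlgap3, a GKAP protein known in mouse for its striatal expression and for the grooming of its knockout, was not called. Its medians in zQ175 and WT mice were 304.9 and 301.0 CPM in 2[4]6, 340.9 and 342.6 CPM in 6[4]10, and 291.8 and 318.5 CPM in 2.6[8]10.

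Of the Shank genes, Shank3 was called in both regimens of 10 months. Its range in 6[4]10 was 228.03 to 317.8 CPM (median 267.5) in untreated zQ175 mice, against 289.7 to 351.5 CPM (median 311.4) in WT mice, and it fell by 13.3 percent (−0.21 ± 0.064, edgeR adjusted p = 0.0244). Without the 6 libraries with K names the change was −0.18 (adjusted p = 0.0665) and was not called. Shank3 in 2.6[8]10 ranged over 241.02 to 295.4 CPM (median 256.6) in zQ175 mice, against 274.4 to 336.1 CPM (median 311.7) in WT mice, and fell by 15 percent (−0.24 ± 0.066, adjusted p = 0.012). Shank3 in 2[4]6 changed by −0.10 (adjusted p = 0.578). Shank1, the deep scaffold found mainly in brain, had medians of 405.6 CPM in zQ175 and 521.8 CPM in WT mice of 2.6[8]10, with 6 of 8 zQ175 mice below every WT mouse. Its change there was −0.30 ± 0.143 with all libraries (adjusted p = 0.176) and −0.30 without the library high in striatal markers (adjusted p = 0.00061, called). The change of Shank1 in 6[4]10 was −0.23 ± 0.082 (adjusted p = 0.0568). Shank2 was the 1 scaffold whose change was positive in untreated mice of 2[4]6 and 6[4]10 (0.07 and 0.06, adjusted p = 0.589 and 0.626). Its ranges overlapped throughout, with 164.3 to 206.9 CPM in zQ175 and 164.3 to 194.2 CPM in WT mice of 2.6[8]10.

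Homer1 was not called in untreated mice of any regimen. It ranged over 86.5 to 114.7 CPM (median 89.5) in zQ175 mice of 2[4]6, against 85.98 to 109.6 CPM (median 100.2) in WT mice. In 6[4]10 it ranged over 73.9 to 114.6 CPM (median 90.6) in zQ175 mice, against 85.6 to 173.8 CPM (median 96.8) in WT mice, the highest being a library with a K name. Homer1 in 2.6[8]10 ranged over 71.6 to 121.2 CPM (median 83.8) in zQ175 mice, against 85.4 to 134.4 CPM (median 99.2) in WT mice. The log2 changes were −0.08, −0.22 and −0.23 with adjusted p of 0.679, 0.37 and 0.283. Without the K-named libraries the change in 6[4]10 was −0.10 (adjusted p = 0.542).

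**Figure D2:**
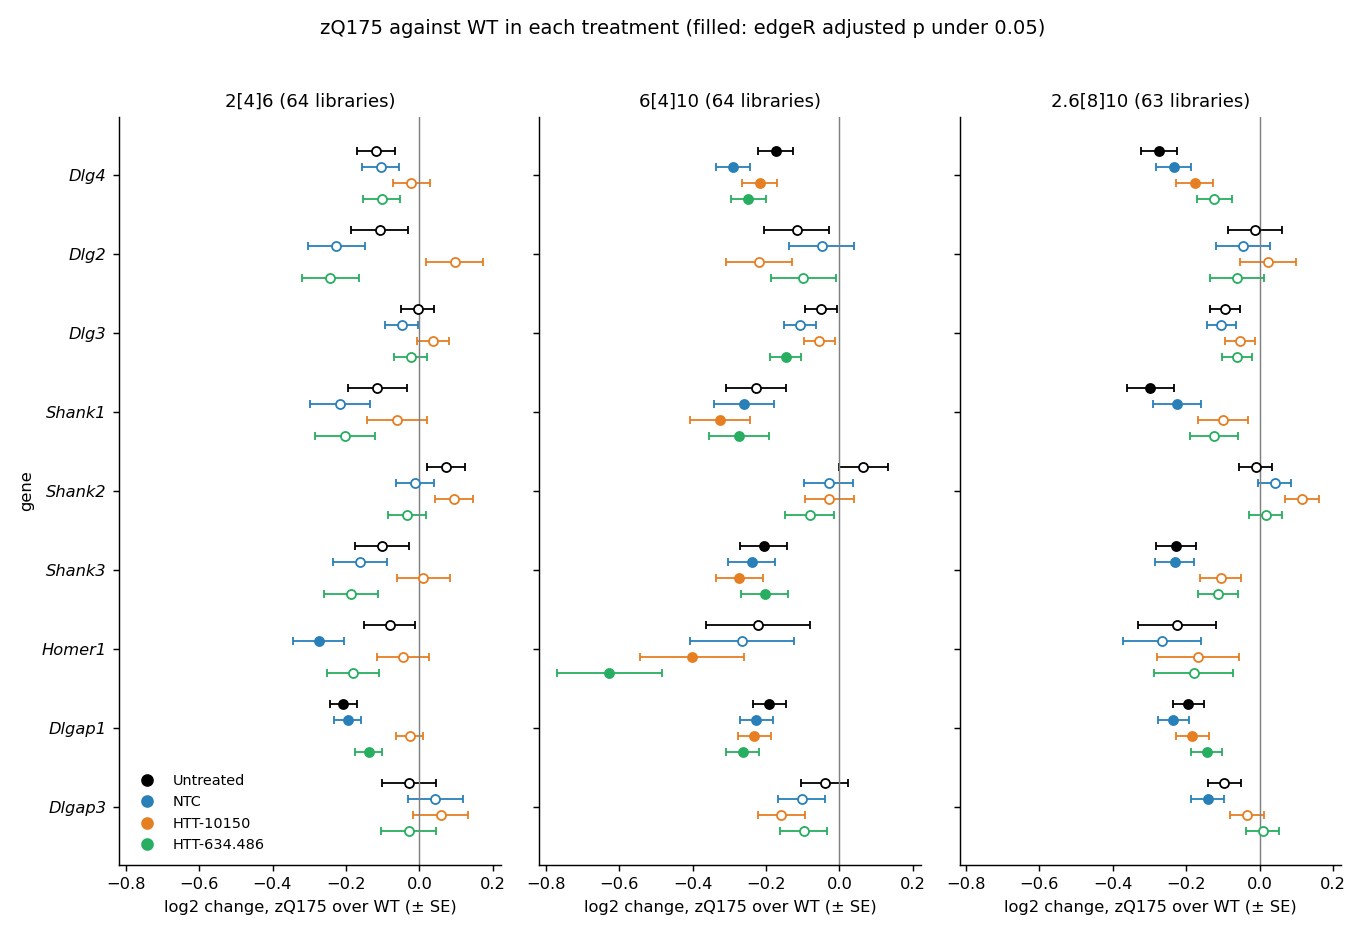
Log2 change of each gene, zQ175 over WT, in untreated, NTC, HTT-10150 and HTT-634.486 mice of each regimen (points, bars are ± SE, filled where the edgeR adjusted p is under 0.05). 2.6[8]10 is shown without the library high in striatal markers. Dlgap1 is called in 3 of the 4 treatments of 2[4]6 and lies near 0 in its HTT-10150 mice, and Shank2 lies around 0 in all panels.

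In NTC mice, a second set of mice of each genotype, the same comparison called 2, 4 and 2 of the 9 genes lower in the 3 regimens, and 5 in 2.6[8]10 without the library high in striatal markers. The background was 5.23% of genes called in 2[4]6, 14.7% in 6[4]10 and 10.4% in 2.6[8]10 (15.1% without that library). Dlgap1 fell by 12.7 percent in 2[4]6 (−0.20 ± 0.037, adjusted p = 0.000329), with 8 of 8 zQ175 mice below every WT mouse. Homer1 fell by 17.3 percent in 2[4]6 (−0.27 ± 0.070, adjusted p = 0.0102), with 74.1 to 94.9 CPM in zQ175 mice and 89.5 to 130.9 CPM in WT mice. In 6[4]10 Dlg4 fell by 18.2 percent (−0.29 ± 0.047, adjusted p = 4.38e-06), with 504.2 to 654.2 CPM in zQ175 mice and 700.2 to 786.4 CPM in WT mice. The groups did not overlap there for Dlg4 or for Dlgap1 (−0.23 ± 0.045, adjusted p = 0.000141). How many of all genes had groups apart in this way was not counted. Shank3 (−0.24 ± 0.064, adjusted p = 0.00591) and Shank1 (−0.26 ± 0.082, adjusted p = 0.0214) were called in the same regimen, each with 7 of 8 zQ175 mice below every WT mouse. Those 4 genes were also called without the K-named libraries, in a fit whose share of all genes called is not given here. In 2.6[8]10 Dlg4 (−0.24 ± 0.051, adjusted p = 0.000615) and Shank3 (−0.24 ± 0.066, adjusted p = 0.0111) were called with all libraries. Without the library high in striatal markers Dlgap1 (−0.24, adjusted p = 3.72e-05), Shank1 (−0.22, adjusted p = 0.0113) and Dlgap3 (−0.14, adjusted p = 0.0218) were called as well.

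Under HTT-10150, edgeR called none of the 9 genes between zQ175 and WT mice of 2[4]6 (0 at an unadjusted p under 0.05, and 0 by DESeq2), with log2 changes of −0.06 to 0.10, while 6.59% of all genes were called. In 6[4]10, where 15.3% of genes were called, 5 of the 9 fell. These were Dlg4 (−0.22, adjusted p = 0.000569), Dlgap1 (−0.23, adjusted p = 0.000111), Shank1 (−0.33, adjusted p = 0.00313), Shank3 (−0.27, adjusted p = 0.00151) and Homer1 (−0.40, adjusted p = 0.0433), and the same 5 were called without the K-named libraries, with Homer1 at −0.28 (adjusted p = 0.0191). The share of all genes called without the K-named libraries is not given for this comparison. In 2.6[8]10, with 9.11% of genes called, Dlg4 (−0.22, adjusted p = 0.00297) and Shank3 (−0.21, adjusted p = 0.0363) fell. Without the library high in striatal markers, which belongs to this WT group, the called genes were Dlg4 (−0.18, adjusted p = 0.0179) and Dlgap1 (−0.18, adjusted p = 0.004), with 7.92% of genes called.

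Under HTT-634.486, Dlgap1 alone fell in 2[4]6 (−0.14, adjusted p = 0.03), where 2.14% of genes were called. In 6[4]10, with 17.1% of genes called, 6 of the 9 fell, namely Homer1, Dlgap1 (−0.26, adjusted p = 1.56e-05), Dlg4 (−0.25, adjusted p = 9.64e-05), Dlg3 (−0.15, adjusted p = 0.0116), Shank1 (−0.27, adjusted p = 0.0147) and Shank3 (−0.20, adjusted p = 0.0212). Without the K-named libraries, 3 of which belong to this WT group, 2 were called, Dlg4 (−0.21, adjusted p = 0.00761) and Dlgap1 (−0.19, adjusted p = 0.00593), beside 6.19% of all genes. In 2.6[8]10 edgeR called none of the 9, beside 1.96% of all genes called (1 of the 9 at an unadjusted p under 0.05, and 0 by DESeq2). Without the library high in striatal markers Dlgap1 was called by edgeR (−0.14, adjusted p = 0.0359), as were 4.54% of all genes.

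Homer1 in 6[4]10 had its widest split under HTT-634.486. It ranged over 65.4 to 84.4 CPM (median 75.2) in zQ175 mice, against 79.2 to 195.1 CPM (median 96.8) in WT mice. Homer1 fell by 35.3 percent (−0.63 ± 0.143, edgeR adjusted p = 0.00116). The 3 WT mice with K names stood at 195.1, 144.7 and 176.8 CPM, and without them the change was −0.23 (adjusted p = 0.168). Over the whole regimen the 6 K-named libraries ranged over 144.7 to 195.1 CPM (median 173.99), against 79.2 to 115.5 CPM (median 92.9) in the other 26 WT libraries and 63.5 to 114.6 CPM (median 83.6) in the 32 zQ175 libraries. They did not overlap with the rest, and no library of 2[4]6, K names included, was above 131.7 CPM. How many of all genes set these 6 libraries apart was not counted. The split is therefore not shown to be particular to Homer1. Shank2 was 190.2 to 217.5 CPM in the 6 libraries, against 149.1 to 195.1 CPM in the other WT libraries. Their 13 immediate early genes summed to 595.9 to 900.6 CPM, within the 355.0 to 1090 CPM of the other WT libraries, and their median was 783.2 CPM, against 580.6 CPM. Single genes of that list were further apart, chosen here after their values were seen. Fosb was 15.8 to 28.1 CPM (median 21.98) in the 6 libraries, against 7.12 to 16.4 CPM (median 10.1) in the other WT libraries, and Egr3 was 36.9 to 54.1 CPM (median 46.6), against 23.3 to 41.1 CPM (median 34.2). What sets these libraries apart was not tested.

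**Figure D3:**
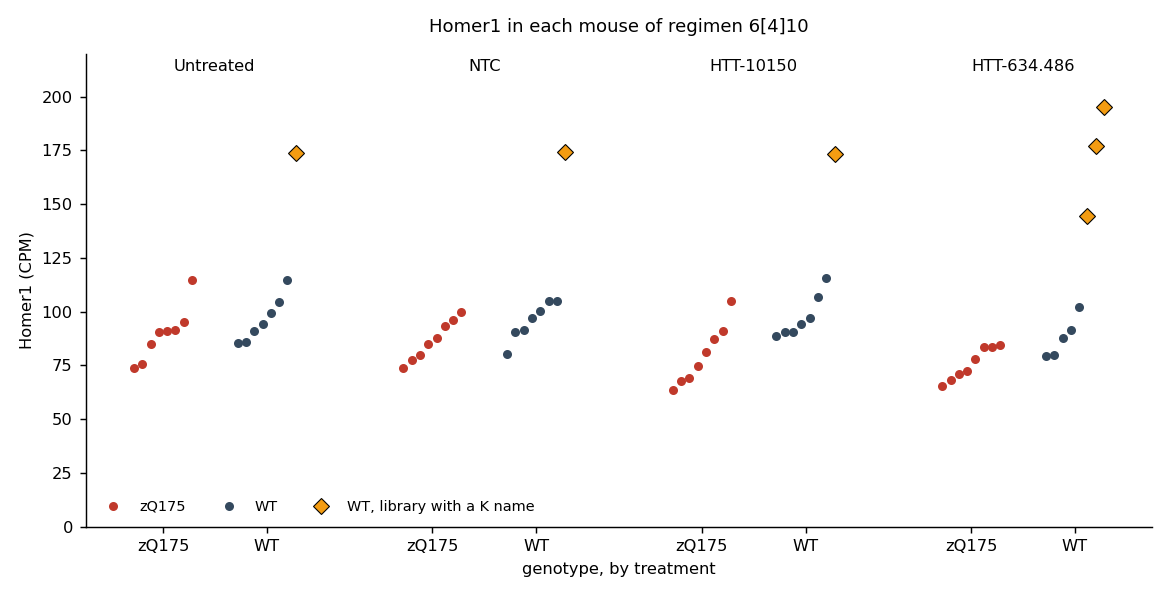
Homer1 level in CPM (linear axis) in each mouse of 6[4]10 by treatment, zQ175 left of WT, with K-named libraries as orange diamonds. The diamonds lie at 144.7 to 195.1 CPM, above all other mice of the regimen, which reach 115.5 CPM.

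Other genes of the synapse were described from lists, in untreated zQ175 against WT mice. Of 17 further scaffold and signalling proteins of the excitatory postsynapse, 3 fell in 2[4]6, 7 in 6[4]10 (5 without the K-named libraries) and 9 in 2.6[8]10, and none rose, with median log2 changes of −0.07, −0.16 and −0.16. Kalrn, an exchange factor that shapes spines, fell by 0.43, 0.60 and 0.60 on the log2 scale (edgeR adjusted p = 3.07e-06, 6.27e-10 and 5.95e-07). Homer3, a relative of Homer1, fell by 0.46, 0.64 and 0.69 (adjusted p = 0.000395, 4.25e-07 and 0.000388), and Cnksr2, a Ras pathway scaffold, by 0.28, 0.42 and 0.42 (adjusted p = 0.00298, 2.08e-06 and 4.31e-05). Each of these 3 changes was larger in size than that of any of the 9 scaffolds in the same untreated mice. Of 10 glutamate receptor and kinase genes, 3, 6 and 8 fell and none rose. Camk2a, the kinase subunit most abundant in the postsynaptic density, fell by 0.29, 0.47 and 0.50 (adjusted p = 0.00793, 5.16e-07 and 0.000292), and the AMPA receptor subunit Gria1 by 0.20, 0.34 and 0.41 (adjusted p = 0.033, 7.38e-05 and 0.000222).

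Of 10 adhesion proteins and AMPA receptor auxiliary subunits, 0, 2 and 1 fell and 0, 1 and 1 rose, the gene that rose being the adhesion protein Lrrtm2 (0.22 in 6[4]10, adjusted p = 0.0047, and 0.21 in 2.6[8]10, adjusted p = 0.00224). Of 9 active zone scaffolds of the presynapse, 0, 3 and 3 fell, which were Ppfia2, Erc2 and Bsn. With the library high in striatal markers left out, the adhesion gene Lrrtm4 (−0.17, adjusted p = 0.0428) also fell and the active zone gene Rims2 rose (0.16, adjusted p = 0.0481) in 2.6[8]10. Of 13 immediate early genes all changes were negative, and 3, 0 and 0 were called, among them Arc in 2[4]6 (−0.75, adjusted p = 0.0252). Of 9 markers of hippocampal fields 4, 5 and 7 fell, with Wfs1, a marker of CA1 neurons, down by 0.95, 1.14 and 1.05 (adjusted p = 6.7e-08, 1.58e-12 and 9.63e-13). Of 5 neuron markers 1, 3 and 1 fell, Snap25 in all 3 regimens (−0.23, −0.19 and −0.17, adjusted p = 0.000136, 0.00101 and 0.0202), and of 5 astrocyte markers 1 fell in each regimen. No marker of oligodendrocytes, microglia, endothelium, choroid plexus or striatum was called in untreated mice with all libraries, and without the K-named libraries the microglial marker Tmem119 rose in 6[4]10 (0.23, adjusted p = 0.0136). The part of these marker changes in the scaffold results was not tested.

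The question of the siRNA comparisons is how far each treatment moved the scaffold genes relative to NTC mice of the same genotype. In zQ175 mice of 2[4]6, HTT-10150 raised 2 of the 9 genes, Dlg2 and Dlgap1, and 8 of the 9 changes were positive (median 0.09). Over all genes 3.57% were called, 2.51% higher. These NTC mice are the same mice that were set against WT NTC mice above. Dlg2 ranged over 185.6 to 228.7 CPM (median 215.1) in HTT-10150 mice, against 136.2 to 193.0 CPM (median 168.4) in NTC mice, and 7 of 8 treated mice lay above every NTC mouse. The rise was 26.2 percent (log2 change 0.34, 95% interval 0.18 to 0.49, adjusted p = 0.012). Untreated zQ175 mice averaged 198.3 ± 18.5 CPM of Dlg2 (SD, n = 8), between both groups, and the change of HTT-10150 mice against them was 0.08 on the log2 scale (interval −0.07 to 0.24) and not called by edgeR. With 1 replicate number left out of every group in turn, 0 to 1 of the 9 genes were called against NTC in 2[4]6. Dlgap1 ranged over 594.5 to 714.7 CPM (median 642.5) in HTT-10150 mice, against 536.3 to 613.0 CPM (median 590.3) in NTC mice. It rose by 9.81 percent (0.13, interval 0.06 to 0.21, adjusted p = 0.0291), and against untreated mice the change was 0.12 (adjusted p = 0.733). Against untreated zQ175 mice HTT-10150 gave no call by edgeR in any regimen, beside 0.00603%, 0.0855% and 1.5% of all genes called. Of the 9 genes, 1, 3 and 2 were at an unadjusted p under 0.05. Without the K-named libraries 5 of the 9 were at that p in 6[4]10. Without the library high in striatal markers 3 were in 2.6[8]10, and neither fit called any of the 9. Shares of all genes at that unadjusted p are not given here. These counts are therefore not shown to be particular to the scaffolds. Against NTC in 2[4]6, Homer1 (0.18, interval 0.04 to 0.31, adjusted p = 0.139) and Shank3 (0.17, interval 0.03 to 0.31, adjusted p = 0.175) were not called.

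In the other regimens edgeR called none of the 9 genes under HTT-10150 in zQ175 mice. Log2 changes were −0.12 to 0.01 in 6[4]10 and −0.11 to 0.13 in 2.6[8]10, with 0 at an unadjusted p under 0.05 and 0 by DESeq2 in both, beside 0.0672% and 0.871% of all genes called. In 2[4]6 the endothelial markers Flt1, Cdh5, Cldn5 and Pecam1 also rose under HTT-10150, 4 of 4, by 0.65, 0.54, 0.40 and 0.36, and among further postsynaptic scaffolds Lrrc7 (0.32, adjusted p = 0.0276), Cnksr2 (0.22, adjusted p = 0.0308) and Magi3 (0.16, adjusted p = 0.0481) rose. The active zone genes Pclo (0.29, adjusted p = 0.0106), Rims2 (0.25, adjusted p = 0.02) and Rims1 (0.19, adjusted p = 0.0223) rose too. The part of the endothelial markers in the Dlg2 and Dlgap1 results was not tested.

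Under HTT-634.486 edgeR called none of the 9 genes against NTC in zQ175 mice in the fits of all libraries. At an unadjusted p under 0.05 there were 0, 2 and 1 genes in the 3 regimens, and DESeq2 called 0, 0 and 1. The background was 0.0302%, 0.959% and 2.04% of genes called at the adjusted p. Shank3 in 2.6[8]10 ranged over 247.3 to 347.2 CPM (median 293.8) in HTT-634.486 mice, against 216.6 to 288.4 CPM (median 257.5) in NTC mice, and 6 of 8 treated mice lay above every NTC mouse. Its change was 0.22 (interval 0.09 to 0.35, adjusted p = 0.0639). The library high in striatal markers is a WT mouse of neither group and enters through the spread, sex term and scaling that the fit shares. Without it, Shank3 (0.22, adjusted p = 0.00866) and Dlgap3 (0.17, adjusted p = 0.0159) were called, beside 4.36% of all genes. In the same fit against untreated zQ175 mice, Dlgap3 (0.18, adjusted p = 0.00775), Shank3 (0.20, adjusted p = 0.0154), Shank1 (0.20, adjusted p = 0.0388) and Dlg4 (0.15, adjusted p = 0.0452) rose, beside 7.83% of all genes. The change of Shank3 against NTC in 6[4]10 was 0.19 (interval 0.06 to 0.31, adjusted p = 0.126). Without the K-named libraries edgeR called none of the 9 genes against NTC in zQ175 mice of 6[4]10 under HTT-10150 or HTT-634.486. Of the 9, 0 and 3 were at an unadjusted p under 0.05, and 0.0603% and 1.74% of all genes were called.

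**Figure D4:**
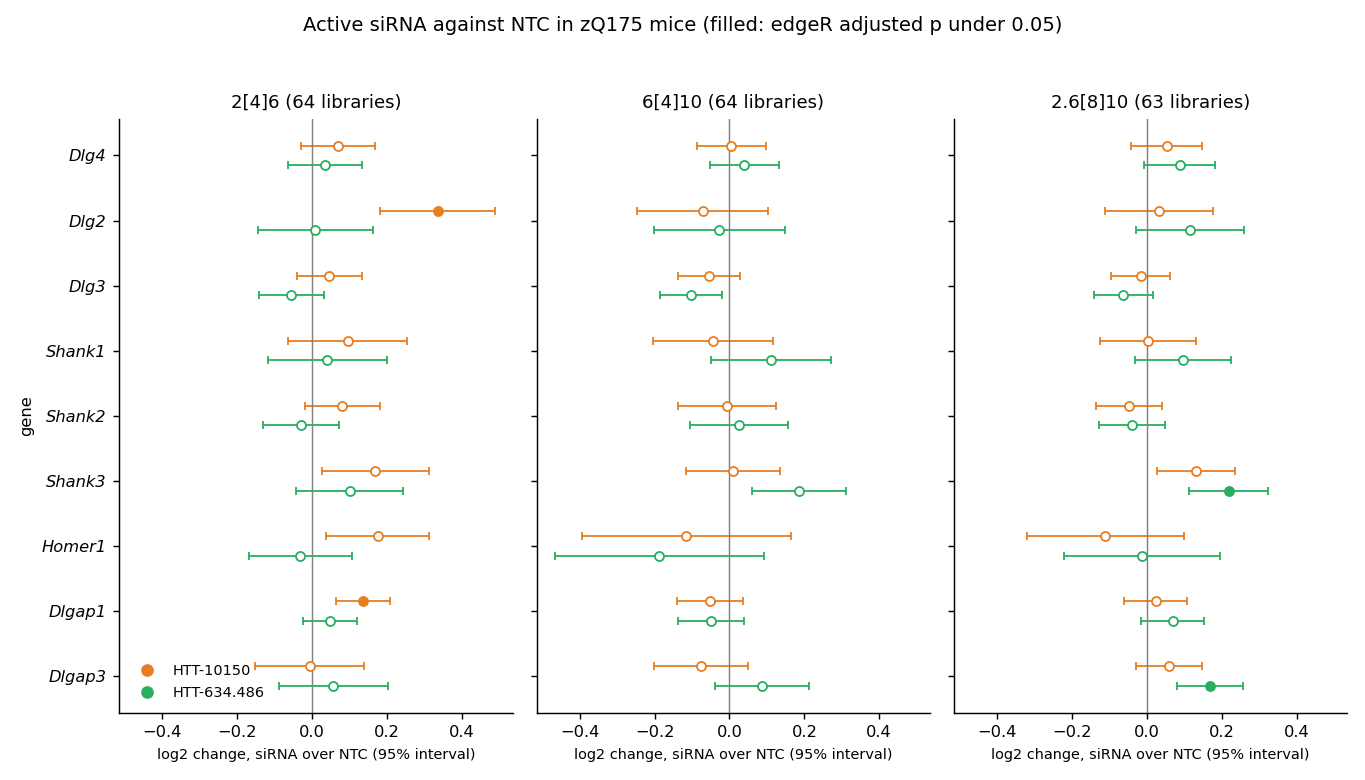
Log2 change of each gene in zQ175 mice under HTT-10150 and HTT-634.486, each over zQ175 NTC mice, by regimen (points, bars are 95% intervals, filled where the edgeR adjusted p is under 0.05). 2.6[8]10 is shown without the library high in striatal markers. Dlg2 and Dlgap1 are filled in 2[4]6 under HTT-10150, and Shank3 and Dlgap3 in 2.6[8]10 under HTT-634.486.

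Set against each other in zQ175 mice of 2[4]6, HTT-10150 left Dlg2 higher than HTT-634.486 did (0.33, interval 0.17 to 0.48, adjusted p = 0.00387), with 185.6 to 228.7 CPM and 103.8 to 195.8 CPM. Homer1 was higher as well (0.21, interval 0.07 to 0.34, adjusted p = 0.0434), with 89.9 to 100.8 CPM under HTT-10150 and 76.7 to 91.6 CPM under HTT-634.486. Markers of other cells moved between these groups, with 4 of 4 endothelial and 4 of 5 microglial markers higher under HTT-10150 and 4 of 5 oligodendrocyte markers lower. The endothelial sum was 93.2 to 133.8 CPM (median 123.6) under HTT-10150 and 55.1 to 90.3 CPM (median 76.1) under HTT-634.486. The oligodendrocyte sum was 4335 to 6054 CPM (median 4894) under HTT-10150 and 4721 to 9402 CPM (median 6817) under HTT-634.486. Their part in the Dlg2 and Homer1 results was not tested. Over all genes 11.7% differed between these treatments in 2[4]6, against 0.116% in 6[4]10 and 0.208% in 2.6[8]10, where none of the 9 genes was called by edgeR (2 and 0 at an unadjusted p under 0.05, 0 by DESeq2). Against untreated zQ175 mice, HTT-634.486 lowered Dlg2 in 2[4]6 (−0.24, adjusted p = 0.0444; 6.58% of all genes called). NTC gave −0.25 against the same untreated mice, and HTT-634.486 against NTC gave 0.01 (interval −0.14 to 0.16). The 4 endothelial markers summed to medians of 76.1 CPM in these HTT-634.486 mice, 86.1 CPM in NTC and 102.2 CPM in untreated mice, and their part in the Dlg2 value was not tested. HTT-634.486 also lowered Dlg3 in 6[4]10 (−0.15, adjusted p = 0.035; 3.9% of all genes called).

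In WT mice none of the 9 genes was called against NTC under either treatment by edgeR or DESeq2. At an unadjusted p under 0.05 there were 0, 1 and 2 genes for HTT-10150 and 0, 1 and 1 for HTT-634.486, beside 0.0664%, 0.0183% and 3.41% of all genes called for HTT-10150 and 0.0121%, 0.0244% and 0.751% for HTT-634.486. In 6[4]10 without the K-named libraries none was called either, beside 0.00603% of genes for HTT-10150 and 0.0121% for HTT-634.486. In 2.6[8]10 without the library high in striatal markers, a mouse of the WT HTT-10150 group, again none was called and 1 gene was at an unadjusted p under 0.05 for each siRNA, beside 1.66% of genes called for HTT-10150 and 2.07% for HTT-634.486. The log2 changes of the 9 genes under HTT-10150 were then −0.21 to 0.0066 with 8 of 9 negative, and with that library −0.28 to 0.17 with 5 of 9 negative. NTC itself against untreated mice gave no call among the 9 in either genotype by edgeR or DESeq2, with 1, 0 and 1 genes at an unadjusted p under 0.05 in zQ175 mice and 0, 1 and 1 in WT mice. Over all genes 0.0302%, 0% and 1.02% were called in zQ175 mice and 0%, 0% and 0.694% in WT mice. Nor, without the library high in striatal markers, was there a call among the 9 in 2.6[8]10, beside 2% of genes in zQ175 and 1.69% in WT mice. Dlg2 had negative changes under NTC in all 6 of these comparisons, at −0.25, −0.12 and −0.22 in zQ175 mice and −0.14, −0.19 and −0.19 in WT mice, none called. Without the K-named libraries, NTC against untreated WT mice of 6[4]10 had 0 of the 9 genes at an unadjusted p under 0.05.

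Whether an siRNA changed zQ175 and WT mice differently was tested as an interaction with NTC as the base, and edgeR called none of the 9 genes for either siRNA in any regimen, nor did DESeq2. For HTT-10150 in 2[4]6 all 9 interaction terms were positive (median 0.16) and 3 were at an unadjusted p under 0.05, Dlg2 (0.32, interval 0.11 to 0.54, adjusted p = 0.194), Dlgap1 (0.17, adjusted p = 0.159) and Homer1 (0.23, adjusted p = 0.3). None of the 9 was at that p in the other regimens or for HTT-634.486 with all libraries. The share of all genes at that p is not given here. The background of called genes was 0%, 0% and 0.0126% for HTT-10150 and 0%, 0% and 0.00631% for HTT-634.486. In 2.6[8]10 without the library high in striatal markers all 9 terms of HTT-10150 were positive too (0.05 to 0.13, median 0.07), with 0 at an unadjusted p under 0.05, and with that library 6 of 9 were positive. For HTT-634.486 the same fit had 1 term at that p, Dlgap3 (0.15, interval 0.03 to 0.27, adjusted p = 0.587). None was called in it, beside 0.00629% of genes for HTT-10150 and 0.044% for HTT-634.486. In 6[4]10 the HTT-634.486 terms were −0.36 to 0.04 with 6 of 9 negative. Without the K-named libraries they were −0.09 to 0.08 with 1 of 9 negative, and none was called.

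With untreated and NTC mice pooled, zQ175 mice were set against WT mice within each sex. In males Dlg4, Dlgap1, Shank1 and Shank3 fell in all 3 regimens, with Dlg4 down by 0.16, 0.26 and 0.30 on the log2 scale (edgeR adjusted p = 0.0118, 1.17e-05 and 3.38e-05). In females Dlgap1 fell in all 3 regimens (−0.17, −0.22 and −0.19, adjusted p = 0.00172, 4.65e-06 and 0.00241), while Dlg4, Shank1 and Shank3 fell in both regimens of 10 months only and had changes of −0.06, −0.03 and −0.01 in 2[4]6. Shank2 rose in females of 2[4]6 (0.14, adjusted p = 0.0425). Homer1 fell in males of 2.6[8]10 (−0.47, adjusted p = 0.00116), where Dlgap3 (−0.21, adjusted p = 0.000675) and Dlg3 (−0.13, adjusted p = 0.0158) fell too. Homer1 also fell in females of 6[4]10 (−0.45, adjusted p = 0.00468), and without the K-named libraries that change was −0.20 (adjusted p = 0.0814). All genes called were 6.55%, 18.5% and 20.9% in females and 10%, 20.2% and 23.2% in males.

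The difference between the sexes itself was called for none of the 9 genes by edgeR, with 3, 1 and 2 at an unadjusted p under 0.05, while DESeq2 called 1, 0 and 1. The largest term was Homer1 in 2.6[8]10 (0.44, females minus males, adjusted p = 0.0656). Over all genes 0.00614%, 0.112% and 6.44% were called. The models of the sexes do not hold the library high in striatal markers. In 6[4]10 the terms of the 9 genes were −0.40 to 0.11 with all libraries. Without the K-named libraries, which are WT females, they were −0.20 to 0.15. Then 0 were at an unadjusted p under 0.05 and none was called.

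The genotype effect of untreated mice was also compared between regimens in a fit of all 192 libraries. None of the 9 genes was called by edgeR or DESeq2, beside 0.0481% of genes for 6[4]10 minus 2[4]6, 0.138% for 2.6[8]10 minus 2[4]6 and 0% for 2.6[8]10 minus 6[4]10. Without the K-named libraries none was called either, beside 0.0416%, 0.137% and 0% of genes. The 1 term at an unadjusted p under 0.05 was Dlg4 for 2.6[8]10 minus 2[4]6 (−0.16, interval −0.30 to −0.02, adjusted p = 0.717). Regimen, age and cohort cannot be told apart in this comparison.

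Ordered by group mean over the 24 groups, Dlg4 ran over 603.0 ± 37.8 CPM (SD, n = 8) in untreated zQ175 mice of 2.6[8]10 to 754.6 ± 59.2 CPM in WT HTT-10150 mice of the same regimen, the group with the library high in striatal markers. Without that library the highest mean of Dlg4 was 743.1 ± 48.3 CPM, in WT NTC mice of 2.6[8]10. Homer1 ran over 75.9 ± 7.55 CPM in zQ175 HTT-634.486 mice of 6[4]10 to 119.6 ± 46.2 CPM in the WT mice of that treatment, 3 of which are K-named. Dlgap1 ran over 555.9 ± 33.2 CPM in zQ175 NTC mice of 2.6[8]10 to 695.9 ± 17.8 CPM in WT NTC mice of 6[4]10. In none of the 9 genes did neighbours in the order differ by more than the larger SD of the pair, in 0 of 23 steps each. Steps between 24 ordered means are small by construction, so this count does not show how far the groups stand apart. The lower 12 groups held 11 of the 12 zQ175 groups for Dlg4, Homer1 and Dlgap1, 10 for Shank1 and Shank3, 8 for Dlg2, Dlg3 and Dlgap3, and 5 for Shank2. With the library high in striatal markers left out they held 11 for Shank1 and 7 for Dlgap3, and as many as before for the other 7 genes. No such count was made over all genes tested, so this order is not shown to be particular to the scaffolds. At 10 months the 8 zQ175 group means of Dlg4 were 603.0 to 664.2 CPM and the 8 WT means 707.9 to 754.6 CPM, or 707.9 to 743.1 CPM without that library. At 6 months the 4 zQ175 means were 604.3 to 636.1 CPM and the 4 WT means 645.2 to 667.0 CPM. Group means of Shank3 at 10 months were 250.8 to 297.0 CPM in zQ175 and 297.1 to 328.2 CPM in WT groups, and both sets of Dlg2 overlapped.

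The genes most like each scaffold over the 24 group means of log2 CPM were named among 10587 genes, as a description with no p. Dlgap1 was closest to Mical2, a regulator of actin filaments, and Dab1, the reelin adaptor (r = 0.970 and 0.952). Dlg4 was closest to Sept5 (0.964) and Agap2 (0.959), Dlg3 to Plppr4 (0.962) and the neuronal glutamate transporter Slc1a1 (0.939), and Shank1 to Iqsec3 (0.957) and Cpne6 (0.912). Shank3 was closest to Agap2 (0.926) and Ppp1r9b (0.922), the gene of spinophilin, and Homer1 to Sipa1l1 (0.925) and Fgfr1op2 (0.922). Dlg2 was closest to Dpp8 (0.906) and Mapk9 (0.904), Shank2 to Hivep3 (0.914) and Ap3s2 (0.808), and Dlgap3 to Grik5 (0.890) and Ppp1r12c (0.849). The groups share regimens, so these correlations hold regimen, genotype and treatment at once. Without the library high in striatal markers the closest gene was another one for 6 of the 9 scaffolds. It was Shank1 for Shank3 (0.928), Magi2 for Homer1 (0.935), Tnks1bp1 for Dlg4 (0.963), Mapk9 for Dlg2 (0.907) and Spen for Shank2 (0.879), and for Dlgap1 both neighbours were replaced, by Lingo3 (0.971) and Adcy2 (0.969).

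Between single mice, after removal of the mean of each group and sex, the scaffolds moved together to different degrees. Over 191 libraries, without the one high in striatal markers, Shank1 and Shank2 had a Pearson's r of 0.837, Shank1 and Shank3 of 0.792, and Shank3 and Dlgap3 of 0.783. Dlg4 correlated with Shank1 at 0.729 and with Dlgap3 at 0.713, and Dlg3 with Dlgap1 at 0.713. The lowest value was 0.073, between Dlg2 and Dlgap3. With all 192 libraries Dlgap1 and Dlgap3 had an r of −0.374, and without that 1 library 0.368, so the sign of that value rests on it. Values of 1 mouse share its library, its depth and its cell makeup.

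**Figure D5:**
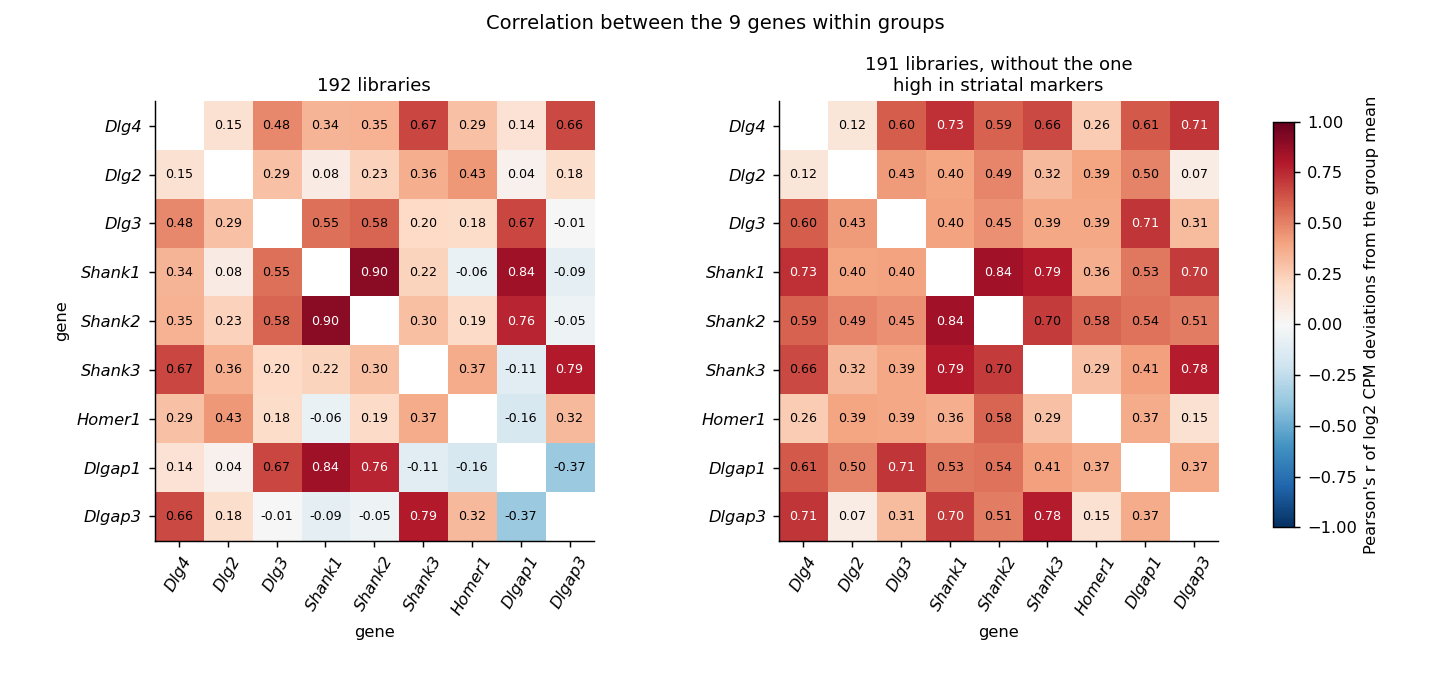
Pearson's r between the 9 genes over log2 CPM deviations from the mean of each group and sex (colour scale −1 to 1). All 192 libraries are on the left, and the right is without the library high in striatal markers. Shank1 and Shank2 are at 0.903 on the left and 0.837 on the right, and Dlgap1 and Dlgap3 at −0.374 and 0.368.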

How the data were processed

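Hippocampal RNA of 192 mice was extracted with a Qiagen RNeasy kit and sequenced after polyA selection, per the labels' protocols. The authors deposited 1 table of estimated counts per gene, made with RSEM on GRCm38 per the submitters' processing notes, in which every value is whole. Neither the aligner nor any version or strand setting is named there. Of its features 7 have no Ensembl identifier, and they stayed out of all fits.

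From these counts, edgeR 4.0.16 (R 4.3.3) was run with TMM factors, its filter on low counts and a quasi-likelihood F test of group and sex, with 1 model per regimen of 64 libraries. A model of 192 libraries served the differences between regimens, and models of the 32 untreated and NTC libraries of a regimen served the sexes. P-values were Benjamini-Hochberg adjusted over all genes tested, 16575 in 2[4]6, 16374 in 6[4]10 and 15852 in 2.6[8]10, with a threshold of 0.05. Log2 CPM used a prior count of 2. The fits were tested on simulated counts. The labels do not say whether mice of a group were littermates, so the spread is that between these samples. Same-numbered replicates had a mean r of 0.044, 0.064 and 0.07 over 224 pairs per regimen (−0.534 to 0.61, −0.433 to 0.619 and −0.449 to 0.735), against −0.014, −0.021 and −0.023 for other numbers of the same sex. Since not every pair was over 0.1, the numbers were not used as pairs.

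The 9 genes and the 14 other lists were chosen with earlier results of these data known. The result of 1 list is not reported here. Named in the text were the 9 genes, up to 4 genes of smallest adjusted p of a list, Htt, and for each of the 9 the 2 genes with the best correlating group means, among genes with a mean log2 CPM of at least 3. Alternatives were DESeq2 1.42.0, RLE factors, no filter, the replicate label or library number as a block, untreated mice as reference or alone, and leaving out libraries or replicates. Leaving out the library high in striatal markers or the K-named libraries was chosen after seeing the data.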

Additional observations from a re-analysis of the deposited data

Results flagged for a closer look

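Over the 9 genes and 24 groups, 28 of 216 groups of 8 mice held a mouse whose gap to its nearest neighbour was above Dixon's critical value, a bound that chance passes in about 1 of 20 groups. Of the 28, 9 came from 1 library, the first female of the WT HTT-10150 group of 2.6[8]10, which is also the one high in striatal markers. It was the highest of its group in Dlg4 (880.7 CPM), Dlg2 (236.4 CPM), Shank3 (453.2 CPM), Homer1 (201.0 CPM) and Dlgap3 (730.4 CPM), and the lowest in Dlg3 (160.2 CPM), Shank1 (79.5 CPM), Shank2 (71.7 CPM) and Dlgap1 (133.6 CPM).

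Homer1 was also set apart in 3 K-named WT females of 6[4]10, with 173.3 CPM under HTT-10150, 174.2 CPM under NTC and 173.8 CPM untreated. A WT NTC male of 2.6[8]10 was high with 154.3 CPM of Homer1 and a WT NTC female of 2[4]6 with 130.9 CPM, and a zQ175 HTT-10150 female of 2[4]6 was low with 89.9 CPM.

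Dlg4 was low in a zQ175 NTC female of 2.6[8]10 (521.6 CPM) and in a zQ175 NTC male of 6[4]10 (504.2 CPM), and high in a zQ175 HTT-10150 male of 2[4]6 (771.7 CPM). The third male of the zQ175 HTT-634.486 group of 2[4]6 was low in Dlg2 (103.8 CPM) and in Shank2 (126.3 CPM), and a zQ175 untreated male of 6[4]10 was low in Dlg2 (153.9 CPM). Dlg3 was low in a WT HTT-10150 male of 6[4]10 (182.1 CPM). Shank2 was high in an untreated zQ175 female of 2.6[8]10 (206.9 CPM) and of 2[4]6 (210.7 CPM). The third male of the WT HTT-634.486 group of 2[4]6 was high in both Shank3 (369.4 CPM) and Dlgap3 (399.2 CPM). Dlgap1 was high in an untreated zQ175 male of 6[4]10 (661.2 CPM), and Dlgap3 was low in an untreated zQ175 male of 2[4]6 (232.1 CPM).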

How the results depend on the processing

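Counts of the 9 genes called are given against those of the fits of all libraries. RLE factors and the replicate block kept all 45 counts within 1.5 times, and the replicate block moved 1 single gene across the threshold, Shank1 in untreated mice of 6[4]10 (log2 change −0.23, now called). Without a filter on low counts, 1 gene in place of 2 was called in zQ175 mice of 2[4]6 for HTT-10150 against HTT-634.486 and against NTC, 1 in place of 2 for zQ175 against WT under HTT-10150 in 2.6[8]10, and 0 in place of 1 under HTT-634.486 in 2[4]6. With the library number as a block, 1 in place of 0 was called in 2.6[8]10 for HTT-10150 against NTC in WT mice and for HTT-634.486 against NTC in zQ175 mice; for contrasts of genotype it could not be fitted, since numbers are nested in genotype. With untreated zQ175 mice as reference, HTT-10150 gave 0 in place of 2 in 2[4]6, and HTT-634.486 gave 1 in place of 0 in 2[4]6 and in 6[4]10. DESeq2 gave 1 in place of 0 for HTT-634.486 against NTC in zQ175 mice of 2.6[8]10 and for the genotype by sex interaction in 2[4]6 and 2.6[8]10, and without the library against its sex label the interaction in 2.6[8]10 gave 2. Untreated libraries alone gave 4 in place of 2 in 2.6[8]10. Without the library high in striatal markers, 2.6[8]10 gave 4 in place of 2 for untreated zQ175 against WT mice, 5 in place of 2 for NTC, 1 in place of 0 under HTT-634.486, and 2 in place of 0 for HTT-634.486 against NTC in zQ175 mice. Without the K-named libraries, 6[4]10 gave 2 in place of 6 for zQ175 against WT under HTT-634.486. The cause was not tested.

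With 1 replicate number left out of every group in turn, zQ175 against WT gave 1 to 4 (6[4]10) and 1 to 2 (2.6[8]10) for untreated mice, 1 to 3 (2[4]6), 2 to 4 (6[4]10) and 1 to 5 (2.6[8]10) for NTC, 1 to 2 under HTT-10150 in 2.6[8]10, and 0 to 1 (2[4]6) and 3 to 5 (6[4]10) under HTT-634.486. In zQ175 mice of 2[4]6, HTT-10150 gave 0 to 1 against NTC and 0 to 3 against HTT-634.486, and NTC against untreated gave 0 to 1. The genotype by sex interaction of 2.6[8]10 gave 0 to 2. Changes near 0 turned sign, none of them called. For untreated mice these were Dlg2 in 2.6[8]10 (−0.0688 to 0.0204), Dlg3 in 2[4]6 (−0.0244 to 0.0253), Dlgap3 in 6[4]10 (−0.0852 to 0.0285) and Shank2 in 2.6[8]10 (−0.0513 to 0.0355). For NTC they were Dlg2 in 2.6[8]10 (−0.116 to 0.0392) and 6[4]10 (−0.181 to 0.048), Dlgap3 in 2[4]6 (−0.00208 to 0.0856), and Shank2 in 2[4]6 (−0.0216 to 0.0187) and 6[4]10 (−0.102 to 0.0067). Leaving out number 1 also removes the library high in striatal markers and 4 K-named libraries.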
